A study of Mus musculus with 8 samples.

Results

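Frame-preserving alternative cassette exons are exons that mature transcripts either contain or skip and whose length is a multiple of 3, so that both forms can be read in the same frame downstream. They were taken from the cassette exon tables of mouse spermatocytes, the germ cells in meiosis, and round spermatids, the haploid cells that follow. An exon was a member when it was 28 to under 300 nt long and divisible by 3, had inclusion plus skipping reads averaging at least 10 per library, and had an inclusion level between 10% and 90% in at least 1 stage. The inclusion level is the share of transcripts that hold the exon, from reads divided by the length of each form and summed over the 4 libraries of a stage. Of 45500 cassette exons in the tables, 2349 in 1872 genes met this rule. The frame was judged from the length alone, and whether each exon lies in coding sequence was not determined.

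An exon of this kind that is coding and has no stop codon in frame adds or removes a run of whole codons. Such an internal exon changes the protein between its flanking residues and leaves the rest of the reading frame in place. An exon of another length shifts the frame when it is skipped, which often brings in a premature stop codon and exposes the transcript to nonsense-mediated decay. Testis is known as a tissue rich in alternative splicing, and germ cells make many isoforms not seen in the soma.

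The study examined mice with a conditional Larp7 knock-out and wild-type controls on a C57BL/6 background. Larp7 binds the 7SK RNA, which holds the elongation factor P-TEFb, and takes part in the modification of U6 RNA, a core part of the spliceosome. Germ cells of adult testes were stained with Hoechst and sorted by FACS, and the 4 groups, of knock-out round spermatids, wild-type round spermatids, knock-out spermatocytes and wild-type spermatocytes, had 2 libraries each. Neither the driver of the conditional deletion nor the number of animals per library is given in the labels. The tables of a stage number their sample groups without naming the genotype, so differences within a stage are given as first minus second sample group, also written group 1 and group 2, and carry no genotype direction. The labels speak of biological replicates but not of separate animals, so p-values measure only the spread between these libraries.

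Reads over all splicing events summed to 49904607 to 93265932 per round spermatid library and 51786242 to 102000320 per spermatocyte library, with library 2 of the first sample group deepest in both stages; overlapping events share reads. A 125-nt exon of Larp7 in round spermatids stood at 0.279% and 0.598% in the first sample group, against 100% in both libraries of the second. In spermatocytes it stood at 2.40% and 0.951% in group 1 against 100% in both libraries of group 2, and a deleted exon and a skipped one cannot be told apart. Reads of listed genes were taken from the most covered event of each gene and scaled to the sum over genes in the library (CPM). In round spermatids those of 48 meiosis genes summed to 7789 and 6444 in group 1 against 6724 and 6348 in group 2, with 14 genes higher and 7 lower in group 1 without overlap. In spermatocytes those of 51 meiosis genes summed to 14063 and 13657 in group 1 against 13614 and 12864 in group 2, with 25 higher and 4 lower. Acrosome and spermatid genes summed in round spermatids to 43677 and 42658 in group 1 against 51091 and 44771 in group 2 (4 higher, 13 lower). In spermatocytes they summed to 24033 and 25621 in group 1 against 28278 and 25979 in group 2 (4 higher, 20 lower). Of 10 elongating spermatid markers 4 were measured, and Odf2, Akap4 and Gapdhs among them are also in the list of acrosome and spermatid genes. The 4 had lower sums in group 1, at 8791 and 10745 against 14413 and 11271 in group 2 of round spermatids (0 higher, 2 lower). In spermatocytes these were 1737 and 2092 against 2741 and 2456 in group 2 (0 higher, 3 lower). Oaz3, the marker not shared, overlapped between groups in both stages. Fewer cells of a type and less RNA per cell cannot be told apart in such sums. No share over all genes is given here beside the counts of genes without overlap, so these counts are only a description. Markers of spermatogonia and somatic cells had lower sums, which were not level between the sample groups of spermatocytes. The 7 measured of 10 spermatogonia markers summed to 233 and 60.5 CPM in the first sample group, against 19.2 and 25.1 CPM in the second, each of the 7 higher in both libraries of the first. The 5 measured of 10 Sertoli cell markers summed to 206 and 136 in group 1 against 41.0 and 69.4 in group 2, again with each of the 5 higher. Of the 12 Leydig, peritubular and immune markers, 7 were measured and summed to 66.3 and 40.6 in group 1 against 34.6 and 45.1 in group 2. In round spermatids 3 spermatogonia markers summed to 2.44 to 4.27 in the 4 libraries, and 3 Sertoli cell markers summed to 61.7 and 81.2 in group 1 against 38.8 and 49.0 in group 2 (2 of 3 higher). Gfra1, Nanos3 and Sall4, which mark undifferentiated spermatogonia, had no event in either table.

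The sequences of 4 members are given to show what such an exon looks like in the genome. Of 13 members that lie whole within a RefSeq window (GRCm38.p6) around an annotated gene start, 6 lie in the window of another gene, and these 4 were picked by hand among the 6, not for how they differ. They do not stand for all members. The 162-nt exon of Rab3il1, also among the 13, has 3 stop codons in each of the 3 reading frames. The exon is in capitals and 20 nt of each neighbouring intron in lower case, read 5′ to 3′ on the strand of the gene. The Hnrnpd exon is at chr5:99976534-99976590 (minus strand), the G3bp2 exon at chr5:92063337-92063435 (minus), the Mff exon at chr1:82741818-82741976 (plus) and the Ssbp3 exon at chr4:107027217-107027297 (plus).
Hnrnpd: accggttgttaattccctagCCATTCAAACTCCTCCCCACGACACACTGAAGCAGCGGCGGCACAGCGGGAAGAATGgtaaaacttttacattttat
G3bp2: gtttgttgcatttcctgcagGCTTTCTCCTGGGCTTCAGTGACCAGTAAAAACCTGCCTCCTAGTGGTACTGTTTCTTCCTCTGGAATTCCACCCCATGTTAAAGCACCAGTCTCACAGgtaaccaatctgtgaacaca
Mff: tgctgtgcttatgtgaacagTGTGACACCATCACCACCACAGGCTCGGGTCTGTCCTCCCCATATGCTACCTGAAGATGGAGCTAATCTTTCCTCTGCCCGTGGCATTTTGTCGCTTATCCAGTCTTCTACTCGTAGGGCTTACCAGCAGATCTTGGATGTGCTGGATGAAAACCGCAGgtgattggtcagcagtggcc
Ssbp3: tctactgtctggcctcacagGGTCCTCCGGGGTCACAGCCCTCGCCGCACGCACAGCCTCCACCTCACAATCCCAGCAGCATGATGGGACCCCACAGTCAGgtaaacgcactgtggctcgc
Every one of the 4 is preceded by ag and followed by gt, the usual ends of an intron. By length alone the Hnrnpd exon would hold 19 codons, the G3bp2 exon 33, the Mff exon 53 and the Ssbp3 exon 27. Each of the 4 has a stop codon in at least 1 of the 3 reading frames and none in at least 1 other, and the frame in use was not determined. GC contents were 59.7%, 49.5%, 52.2% and 66.7%.

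These 4 exons stood at intermediate levels in both stages. Hnrnpd encodes AUF1, a protein that binds AU-rich elements of mRNAs. Its exon stood at 55.9%, 59.5%, 54.3% and 49.9% in the 4 round spermatid libraries and at 52.5%, 53.5%, 48.5% and 44% in the 4 spermatocyte libraries, first sample group first, and the stages overlapped. The G3bp2 exon, of a stress granule protein, stood at 15.1%, 22.7%, 26.3% and 19.1% in round spermatids against 28%, 17.1%, 20.6% and 28% in spermatocytes. The 159-nt exon of Mff, the mitochondrial receptor of the fission dynamin Drp1, stood at 18%, 22.8%, 15.8% and 28.7% in round spermatids against 21%, 18.6%, 23.4% and 25.8% in spermatocytes. A 60-nt Mff exon further downstream has the same skipping reads, so transcripts that hold only that exon are left out of this level. The Ssbp3 exon, of a cofactor of LIM-domain transcription complexes, ranged from 21% to 38.7% in round spermatids and from 22% to 42.1% in spermatocytes. None of the 4 was called between the sample groups of either stage.

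Among the alternative exons of 28 to under 300 nt, 41.5% of 5663 were divisible by 3, against 38% of the 33915 other exons of that length with enough reads. The remaining 3314 alternative exons are frame-shifting. Members were slightly shorter, with a median of 105 nt (quartiles 72 and 147) against 112 nt in frame-shifting exons and 117 nt in 12084 near-constitutive exons divisible by 3, which were included above 90% wherever they could be measured. The most common length was 96 nt, held by 61 members. The distance to the neighbouring exon had a median of 2040 nt before and 2071 nt after a member, against 1979 and 2008 nt in frame-shifting exons and 1681 and 1554 nt in near-constitutive ones. A further 798 members (34%) were also listed as 1 exon of a mutually exclusive pair, as were 35.2% of frame-shifting exons, and 128 members overlapped another member.

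Members were less often near full inclusion than frame-shifting exons. Their median level was 67.9% in round spermatids and 66.9% in spermatocytes, against 75.5% and 75% for frame-shifting exons. Levels from 10% to 30% were held by 18.7% of 1978 measured members in round spermatids and 20.4% of 2066 in spermatocytes, and by 14.8% and 15.5% of frame-shifting exons. Levels of 70% to 90% were held by 35.7% and 40.9% of members and 41.3% and 47.7% of frame-shifting exons. The members were chosen by these levels, so the comparison is a description. Median coverage of a member was 97.5 reads per library in round spermatids and 101 in spermatocytes, against 78.3 and 84.5 in frame-shifting exons.

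**Figure D1:**
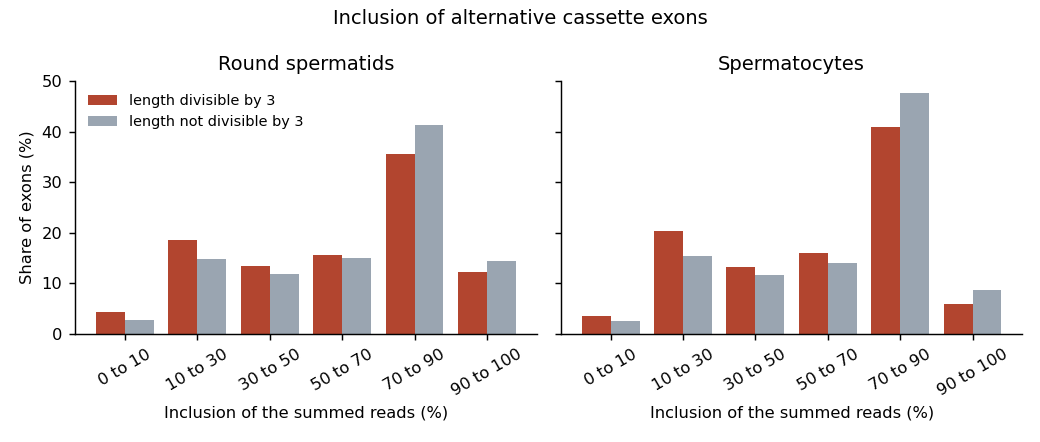
Share of alternative cassette exons (vertical axis, %) by inclusion level of the summed reads (horizontal axis, %; the outer classes span 10 points and the others 20), for members in red and frame-shifting exons in grey, in round spermatids (left) and spermatocytes (right). The class of 70% to 90% is the fullest for both and holds 35.7% and 40.9% of the members.

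The bounds cut through continuous levels. In spermatocytes exons of Rbm25 (10.3%) and Rbm39 (10.5%), both of splicing factors, lay just inside the lower bound, and those of Smap1 (9.72%) and Spo11 (9.72%), the enzyme that makes meiotic DNA breaks, just outside. At the upper bound Eif4e2 (89.9%) and Rnf32 (89.5%) lay inside and Art3 (90.3%) and Ccdc62 (90.5%) outside. In both stages 1172 members were between the bounds. Another 478 were so in round spermatids only, of which 283 lacked reads in spermatocytes, 123 stood above 90% and 72 below 10% there. The other 699 were so in spermatocytes only, of which 371 lacked reads in round spermatids, 241 stood above 90% and 87 below 10%.

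Most genes, 1517, had 1 member, 266 had 2, 68 had 3 and 21 had at least 4. Lrrfip2 and 1520401A03Rik had the most, 7 each. The Lrrfip2 exons, described because of that number, did not move together between stages. Its 93-nt exon stood at 19.3%, 22.3%, 19.4% and 18.1% in round spermatids and 5.60%, 7.82%, 6.98% and 9.71% in spermatocytes, without overlap. Its 102-nt exon stood at 8.09%, 7.34%, 8.76% and 18.3% in round spermatids against 23.4%, 23.9%, 18.2% and 31% in spermatocytes, and the stages overlapped slightly. The other 5 Lrrfip2 members had 3.5 to 14 reads per library in spermatocytes or were not listed there.

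Between the sample groups of spermatocytes, 40 members in 38 genes were called, 28 included less and 12 included more in the first sample group. That is 1.94% of the 2066 tested members, beside 0.542% of all 61123 tested events of the 5 event types (0.402% lower, 0.139% higher), 1.31% of frame-shifting exons and 0.376% of near-constitutive ones. A call is an adjusted p below 0.05 by limma on the log2 odds of inclusion, with Benjamini-Hochberg adjustment across every tested event of the stage. In simulated tables with extra spread between libraries limma made more false calls than a quasi-binomial test of the same reads, so the result of that test is given too. It also called 30 of the 40 exons (19 lower, 11 higher; 0.422% of all events were called by both tests). No limma call remained when library 1 or library 2 of the second sample group was left out. Without library 1 of the first group 11 remained and 12 remained without its library 2, and the 7 that remained in both cases were in Mroh4, Naa40, Odf2l, Rnf32, Cadm1, Man2c1 and Rsrp1.

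Called members had more reads than others, a median of 677 per library against 101 for all measured members, and were 33 to 228 nt long. In 29 of them the sample groups were at least 10 percentage points apart without overlap. Over all tested members the median difference was -1.96 points, against -0.22 over all tested events and -2.46 in frame-shifting exons. Mean inclusion of tested members was 57.5% and 58.3% in the first sample group and 60.5% and 59.9% in the second. The levels did not overlap in 963 members (46.6%, beside 32.5% of all tested events and 47.1% of frame-shifting exons). Libraries of 1 group differed by a median of 5.78 points in the first and 4.77 points in the second sample group. The measured spermatogonia and Sertoli cell markers were higher in the first sample group. Of 51 meiosis genes 25 were higher and 4 lower there without overlap, and of 41 acrosome and spermatid genes 4 were higher and 20 lower. The part of these genes in the differences of inclusion was not tested.

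Splicing regulators had 28 members in 22 genes, of which 27 were tested in spermatocytes. Of these 5 in 3 genes were called, 1 higher and 4 lower in the first sample group, beside 1.94% of all tested members and 0.542% of all tested events. Both tests called 4 of the 5. The list was drawn up with earlier results of these data known. Rsrp1 encodes a protein rich in arginine and serine. Its 45-nt exon (chr4:134925777-134925821, 15 codons if coding) stood at 32.7% and 35.4% in the first sample group, against 9.06% and 9.63% in the second. The groups were far apart, with a log2 odds difference of 2.34 (SE 0.32, limma adjusted p = 4.6e-09), and both tests called it. Of the 40 exons it was the 1 also called without count weights. Its round spermatid levels were 22.9% and 8.40% in group 1 against 5.50% and 19.0% in group 2, overlapping and not called.

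Sfswap encodes an SR-like splicing regulator known to control the splicing of its own transcript. Its 153-nt exon (chr5:129559469-129559621) stood at 69.9% and 80.1% in the first sample group, against 96.5% and 93.1% in the second, a log2 odds difference of -2.43 (SE 0.47, limma adjusted p = 0.000238). The groups did not overlap and both tests called it. In round spermatids, where it was not called, it stood at 80.5% and 65.4% in group 1 against 78% and 82.9% in group 2.

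Bclaf1 encodes a nuclear protein with roles in transcription and mRNA processing, and 3 of its exons were called, each lower in the first sample group. The 228-nt exon stood at 21.3% and 22.4% in group 1 against 36.9% and 34.4% in group 2 (limma adjusted p = 0.0255). The 162-nt exon stood at 22.5% and 26.2% in group 1 against 38.6% and 39.6% in group 2 (limma adjusted p = 0.0293). The 147-nt exon stood at 81.9% and 88.1% in group 1 against 94.7% and 95.3% in group 2 (limma adjusted p = 0.000227). The sample groups of all 3 were apart, and the quasi-binomial test called the 228-nt and the 147-nt exon and not the 162-nt one (quasi-binomial adjusted p = 0.0556). The 3 exons share 1 gene and so are not independent.

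Other exons were higher in the first sample group of spermatocytes. The 60-nt exon of Ssbp4 (chr8:70599840-70599899), of a relative of Ssbp3, stood at 79.3% and 74.6% in group 1 against 34.5% and 46.8% in group 2, with a log2 odds difference of 2.21 (SE 0.39, limma adjusted p = 2.95e-05). The 84-nt exon of Cadm1, an adhesion molecule by which germ cells attach to Sertoli cells, stood at 69.8% and 64.9% in group 1 against 44.8% and 45.9% in group 2 (chr9:47818734-47818817; limma adjusted p = 0.00573). In round spermatids the same Cadm1 exon stood at 53.5% and 63.3% in group 1 against 42.8% and 48.4% in group 2, apart but not called. The 168-nt exon of Ppp1r12a, the targeting subunit of myosin phosphatase, stood at 47.5% and 36.8% in group 1 against 23.6% and 22.4% in group 2 (limma adjusted p = 0.0178). Its order in round spermatids was the other way, at 23.2% and 22.6% in group 1 against 31.1% and 24.6% in group 2, without a call. Both tests called these 3 exons in spermatocytes, where their sample groups did not overlap.

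The 96-nt exon of Ccdc7a, a coiled-coil gene, differed by the most points and rested on 1 library. It stood at 93.6% and 36.3% in the first sample group, against 10.8% and 14% in the second, a log2 odds difference of 4.04 (SE 0.88, limma adjusted p = 0.00221), and both tests called it. With library 1 of the first group left out it was 1.92 and was not called. The 174-nt exon of Sned1, an extracellular matrix protein, was also uneven, at 62.2% and 17.9% in group 1 against 93% and 74.7% in group 2, and the quasi-binomial test did not call it (quasi-binomial adjusted p = 0.118).

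Both receptors that import proteins into peroxisomes had a called member. The 78-nt exon of Pex7, the receptor for the type 2 targeting signal, stood at 62.1% and 61.4% in group 1 against 24.3% and 39.6% in group 2 (limma adjusted p = 0.0303). The 90-nt exon of Pex5, the receptor for the type 1 signal, stood at 11.6% and 15.4% in group 1 against 29.5% and 34% in group 2 (limma adjusted p = 0.0424). The 2 exons thus differed in opposite directions, without overlap in either. The quasi-binomial test called neither, with adjusted p of 0.0594 and 0.0723.

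Other exons were lower in the first sample group of spermatocytes. Naa40 encodes the acetyltransferase of the amino terminus of histones H4 and H2A. Its 159-nt exon (chr19:7229948-7230106) stood at 65% and 73.9% in group 1 against 89.2% and 89.3% in group 2, a log2 odds difference of -1.79 (SE 0.27, limma adjusted p = 5.14e-07). In round spermatids it stood at 83% and 80.3% in group 1 against 95.1% and 97.2% in group 2, called there by the quasi-binomial test and not by limma (limma adjusted p = 0.0907). The 159-nt exon of Odf2l, a relative of the outer dense fibre and centriole protein Odf2, stood at 68.1% and 61.9% in group 1 against 83.9% and 84.2% in group 2 (limma adjusted p = 0.00742). The 168-nt exon of Casc4 stood at 45.2% and 52.5% in group 1 against 63.2% and 73.1% in group 2 and the quasi-binomial test did not call it. The 156-nt exon of Gm6639, a gene model whose reads may be shared with copies, stood at 70.5% and 67.6% in group 1 against 91.8% and 90.6% in group 2. In all 4 the sample groups were apart, and both tests called those of Naa40, Odf2l and Gm6639.

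Further called exons of spermatocytes were named after their values were seen. The 144-nt exon of Cdk2, a kinase needed for meiosis in males, stood at 88.3% and 91.6% in group 1 against 97.1% and 96.1% in group 2 (limma adjusted p = 0.00798; called by both tests). The 93-nt exon of Tubd1, which encodes delta-tubulin of centrioles, stood at 74.8% and 76% in group 1 against 87.9% and 87.4% in group 2, and both tests called it. The 60-nt exon of Mff, downstream of the 159-nt exon printed above, stood at 81.9% and 83.4% in group 1 against 90.8% and 90.1% in group 2, and limma alone called it. The 66-nt exon of Fancg, of the Fanconi anaemia DNA repair complex, stood at 68.6% and 72.8% in group 1 against 89% and 85.2% in group 2 and was called by both. Apart in the other direction were the 96-nt exon of Baz1a, a chromatin remodeller subunit, at 33.7% and 35.3% in group 1 against 16.7% and 21.5% in group 2, and the 42-nt exon of R3hdm1 at 75.8% and 80.5% in group 1 against 62.9% and 59% in group 2, both called by both tests. Among the called members the exon of 1810062O18Rik, at 80.6% and 37.1% in group 1 against 86.9% and 80.3% in group 2, had overlapping groups and was called by both tests.

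Between the sample groups of round spermatids, 7 members in 6 genes were called, 6 higher and 1 lower in the first sample group, and the quasi-binomial test called all 7. They are 0.354% of 1978 tested members, beside 0.131% of all 48060 tested events (0.0437% higher, 0.0874% lower) and 0.402% of frame-shifting exons. By the authors' deposited table, with their FDR below 0.05, 140 tested members were called in round spermatids (7.08%, beside 2.4% of all events and 8.19% of frame-shifting exons). In spermatocytes 303 were called so (14.7%, beside 4.8% of all events and 15.1% of frame-shifting exons). The sample groups of round spermatids did not overlap in 788 members (39.8%, beside 26.7% of all events and 38.7% of frame-shifting exons), and the median difference was -0.85 points. The part of the Sertoli cell and elongating spermatid markers, whose sums also differed between these groups, was not tested. None of the 7 calls remained after any 1 of the 4 libraries was left out.

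The 117-nt exon of Ccdc122 stood at 79.7% and 96.2% in the first sample group, against 63.5% and 35.9% in the second, a log2 odds difference of 3.51 (SE 0.75, limma adjusted p = 0.00629). In spermatocytes it stood at 83.3% and 80.5% in group 1 against 66.1% and 64.3% in group 2, apart but not called. The 117-nt exon of 4932412D23Rik stood at 75.6% and 80.9% in group 1 against 68.1% and 54.4% in group 2 (limma adjusted p = 0.00698). The 93-nt exon of Map2, a protein that binds microtubules, stood at 95.5% and 95.7% in group 1 against 83.4% and 85.7% in group 2 (chr1:66431527-66431619; limma adjusted p = 0.0124). The levels of Map2 were closest within groups, and the groups of all 3 exons were apart.

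In both stages 3 members were called, each higher in the first sample group: the exons of Ccdc7a (ENSMUSG00000025808.17), Ssbp4 (ENSMUSG00000070003.7) and Catsperd (ENSMUSG00000040828.9). Whether the first sample group of both tables is the same genotype is not stated in the headers. The 125-nt Larp7 exon stood at 0.279% and 0.598% in group 1 of round spermatids and at 2.4% and 0.951% in group 1 of spermatocytes. It stood at 100% in both libraries of group 2 in each stage. Catsperd encodes a subunit of the CatSper calcium channel of the sperm tail, and its 114-nt exon (chr17:56654435-56654548) is the best covered of the 3. It stood at 87% and 83% in group 1 against 71.3% and 66.5% in group 2 of round spermatids (log2 odds difference 1.28, SE 0.28, limma adjusted p = 0.00889). In spermatocytes it stood at 89.8% and 92.1% in group 1 against 80.1% and 79.6% in group 2 (1.40, SE 0.25, limma adjusted p = 3.39e-05), and neither stage showed overlap, and both tests called it in each. The 60-nt Ssbp4 exon stood at 87.5% and 78.5% in group 1 against 41.6% and 51.9% in group 2 of round spermatids, about the same 36.2 points apart as the 36.3 points of spermatocytes. Ccdc7a stood at 94.3% and 29.6% in group 1 against 26.7% and 7.99% in group 2 of round spermatids, where the log2 odds difference was 0.58 once library 1 of the first group was left out.

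Ssbp4 held 2 called members in round spermatids that differed in opposite directions. Its 54-nt exon (chr8:70600009-70600062) lies before the 60-nt exon, with 109 nt between them. In round spermatids it stood at 4.82% and 4.07% in group 1 against 38.2% and 17.3% in group 2, a log2 odds difference of -2.77 (SE 0.68, limma adjusted p = 0.0419). In spermatocytes it stood at 7.33% and 2.20% in group 1 against 11.1% and 18% in group 2, without a call. The 54-nt exon was lower where the 60-nt exon was higher, in both stages. Reads that join the exon before them to the 60-nt exon count as inclusion of the 60-nt exon and skipping of the 54-nt exon. The opposite directions are thus partly built into the counting, and the 2 exons are not independent.

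**Figure D2:**
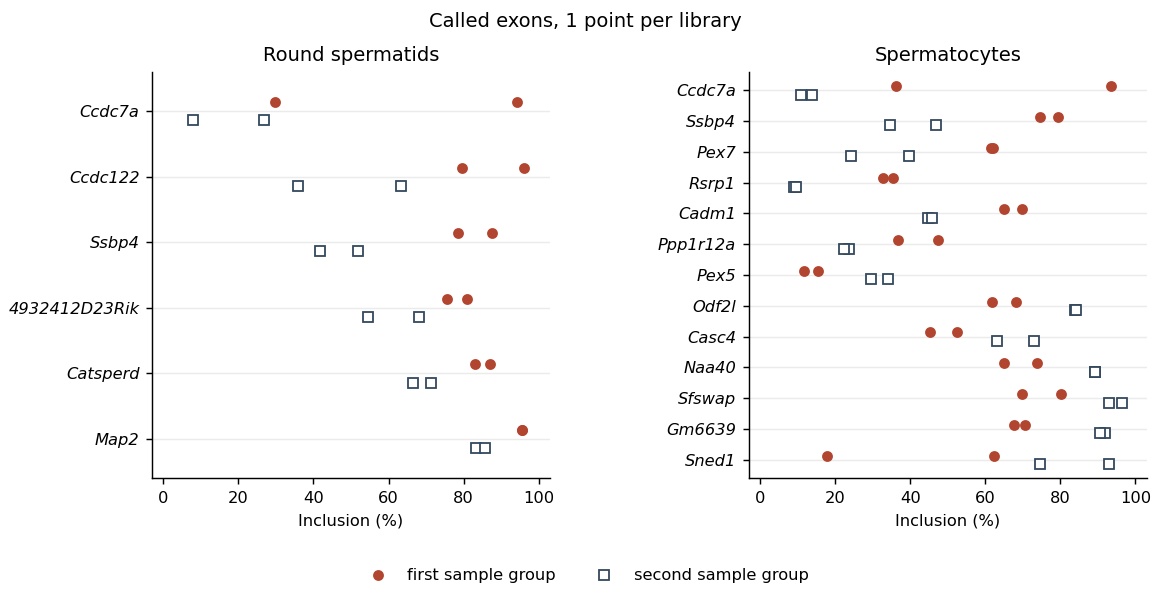
Inclusion (horizontal axis, %) of the named exons in each library of the first (red circles) and second (open squares) sample group of round spermatids (left) and spermatocytes (right). Libraries of 1 group lie close together for Rsrp1, Cadm1 and Catsperd and far apart for Ccdc7a, at 94.3% and 29.6% in round spermatids of the first sample group.

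Stages were compared over 4 libraries each, 2 per sample group, so both genotypes were pooled. The spread within a stage thus holds any difference between the sample groups. Of 1695 members with enough reads in both stages, 397 had no overlap between the 4 round spermatid and the 4 spermatocyte libraries (23.4%, beside 12.8% of all 32389 events in both tables), 241 higher and 156 lower in round spermatids (beside 6.78% and 6.07% of all events). At least 20 points as well separated 118 members (6.96%, beside 1.96% of all events), 72 higher and 46 lower in round spermatids (beside 0.939% and 1.02%). Frame-shifting exons had 27% without overlap and 7.71% with at least 20 points. Because the stage levels chose the members, these counts are a description and were not tested. The median difference was 1.76 points and the median absolute difference 6.37 points (7.38 in frame-shifting exons), and levels of the stages correlated at r = 0.912 across members, which share libraries. In 282 members (16.6%) the stage means were within 2 points. With no overlap, 49 members crossed 50% upward and 27 downward in round spermatids. Of genes with at least 2 separated members, 24 had all of them in 1 direction and 8 in both.

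**Figure D3:**
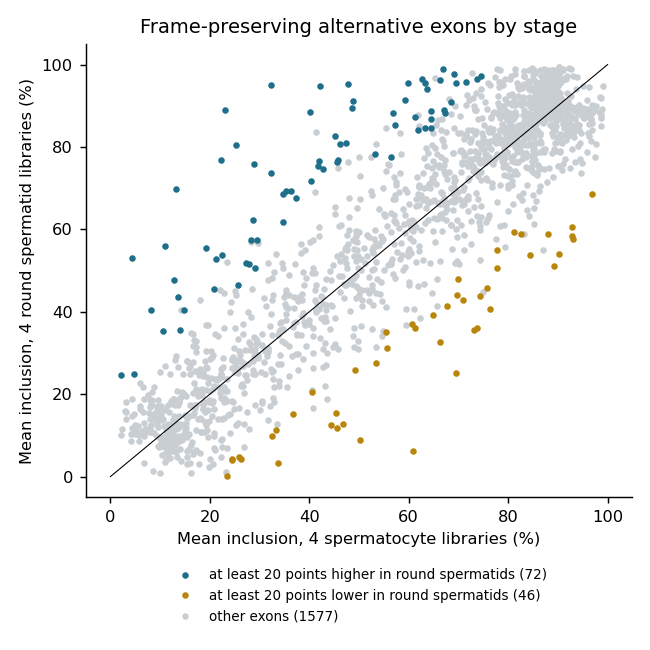
Mean inclusion of 1695 members in the 4 spermatocyte (horizontal axis, %) and 4 round spermatid (vertical axis, %) libraries, 1 point per exon, with a diagonal line of equal levels. Blue points are the 72 exons at least 20 points higher, and ochre points the 46 at least 20 points lower, in round spermatids without overlap of libraries.

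The largest difference lay in Pkm, pyruvate kinase, the last enzyme of glycolysis. Its 117-nt exon (chr9:59663040-59663156) stood at 85.5%, 88.3%, 91.7% and 90.4% in round spermatids and 10.5%, 25.6%, 24.9% and 31.1% in spermatocytes. Means were 89% ± 2.71 in round spermatids and 23% ± 8.79 in spermatocytes (SD over 4 libraries, 2 per sample group), 65.9 points apart. This exon is not the mutually exclusive pair that distinguishes the M1 and M2 enzymes. The 144-nt exon of Erbin, a scaffold of the ErbB2 receptor, came next at 94.1%, 92%, 98.1% and 95.7% in round spermatids against 21.8%, 27.2%, 45.2% and 34.6% in spermatocytes. In both, every round spermatid library lay far above every spermatocyte library. Reads of Pkm were uneven in spermatocytes, at 39.4 and 19.3 CPM in group 1 against 8.88 and 14.5 CPM in group 2. Spermatogonia and Sertoli cell markers were higher in group 1 of spermatocytes as well, and their part in the Pkm level was not tested.

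Other exons were also higher in round spermatids. The 156-nt exon of Catsper2, a pore subunit of the CatSper channel, stood at 81%, 78.8%, 78.2% and 65.1% in round spermatids against 36.8%, 21.2%, 31.3% and 26% in spermatocytes. The 108-nt exon of Tmem67, a membrane protein of the ciliary transition zone, stood at 58.1%, 62%, 47.1% and 54.5% in round spermatids against 18.8%, 21.9%, 17.9% and 18.3% in spermatocytes. In neither did the stages overlap. The 36-nt exon of Slc25a25, a mitochondrial carrier of ATP and magnesium, had the closest round spermatid libraries, at 90.3%, 89.6%, 89.6% and 88.6% in round spermatids against 47.5%, 52.4%, 42.3% and 52.1% in spermatocytes.

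The 51-nt exon of Myef2, an RNA-binding repressor, stood at 53.6%, 62.5%, 48.9% and 58.9% in round spermatids against 12.4%, 9.88%, 8.95% and 12.6% in spermatocytes. The 225-nt exon of Maz, a zinc finger transcription factor, stood at 65.4% to 79.2% in round spermatids and 26.9% to 41.7% in spermatocytes. The 240-nt exon of Polk, a polymerase that copies past DNA damage, stood at 67.8% to 84.6% in round spermatids against 34.1% to 53.3% in spermatocytes. Its round spermatid levels were 67.8% and 70% in group 1 against 84.6% and 83.6% in group 2, apart but not called (limma adjusted p = 0.108). The 150-nt exon of Gm8857, a gene model whose reads may be shared with copies, stood at 66.8% to 88.5% in round spermatids against 15.9% to 33.7% in spermatocytes. All 4 were apart between stages.

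Of the exons lower in round spermatids, the 201-nt exon of Usf2, a basic helix-loop-helix transcription factor, differed the most, at 21.7%, 21.4%, 39% and 18.8% in round spermatids and 71.5%, 72%, 66.8% and 67.4% in spermatocytes. The 159-nt exon of Ufd1l, a partner of the p97 ATPase in protein degradation, stood at 58.8%, 49.9%, 62.6% and 62.2% in round spermatids against 91.7%, 95.4%, 95.8% and 88.6% in spermatocytes. The 234-nt exon of Huwe1, an X-linked ubiquitin ligase, stood at 14%, 12.6%, 8.56% and 15.3% in round spermatids against 48.1%, 40.6%, 43.8% and 45% in spermatocytes. The stages were apart in each. The 63-nt exon of Fmr1, the X-linked gene of the RNA-binding protein FMRP, stood at 14.9%, 11.8%, 15.7% and 19% in round spermatids against 49.6%, 34.9%, 58.4% and 39% in spermatocytes. Reads of both X-linked exons were uneven in spermatocytes, at 240 and 102 in group 1 against 18 and 31 in group 2 for Huwe1, and at 204 and 118 in group 1 against 9 and 21 in group 2 for Fmr1, so that the 58.4% of Fmr1 rests on 9 reads. Spermatogonia and Sertoli cell markers were higher in group 1 of spermatocytes as well, and their part in these levels was not tested.

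The remaining named exons differed by between -26.2 and -38.1 points (round spermatids minus spermatocytes). The 39-nt exon of Mdm4, an inhibitor of p53, stood at 36.7% to 50.4% in round spermatids and 69.9% to 81.5% in spermatocytes. The 168-nt exon of Adgb, androglobin, was nearly absent from round spermatids, at 1.84% to 4.98% in round spermatids against 27% to 38.2% in spermatocytes. The 57-nt exon of Cdhr4, a cadherin-related gene, stood at 31.7% to 66.5% in round spermatids against 85.8% to 91.9% in spermatocytes. Of these exons it had the widest spread of round spermatid libraries, at 66.5% and 56.8% in group 1 against 31.7% and 49.4% in group 2. Those sample groups were apart but not called (limma adjusted p = 0.222). Slc9a5, a sodium-proton exchanger, stood at 26.7% to 41.3% in round spermatids against 61.6% to 71.5% in spermatocytes. Ttc14 stood at 48.2% to 62.4% in round spermatids against 77.5% to 96.1% in spermatocytes, and Tvp23b at 33.8% to 45.3% in round spermatids against 63.7% to 71.3% in spermatocytes. None of these 6 overlapped between stages.

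**Figure D4:**
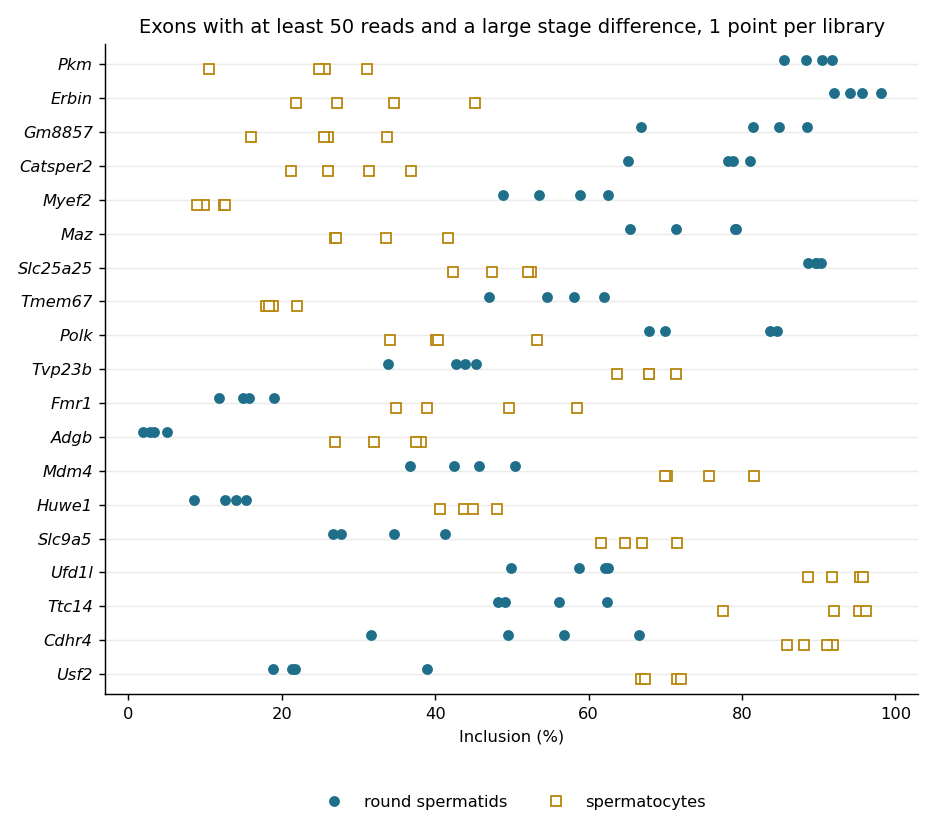
Inclusion (horizontal axis, %) of 9 of the 10 exons higher and the 10 lower in round spermatids, 1 point per library, for round spermatids (blue circles, upper row of each gene) and spermatocytes (open squares, lower row). Pkm lies at 85.5% to 91.7% in round spermatids and 10.5% to 31.1% in spermatocytes, and Usf2 differs the most in the other direction.

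Some of the best covered members hardly differed between stages. The 207-nt exon of Ybx3, a Y-box protein that binds mRNAs of spermatids, had 34736 reads per library in round spermatids and 44056 in spermatocytes. It stood at 82.3% ± 1.14 in round spermatids and 83.4% ± 1.73 in spermatocytes (SD over 4 libraries, 2 per sample group). The 93-nt exon of Pcbp2, which binds poly(C) RNA, stood at 62.2% ± 3.83 in round spermatids and 64% ± 2.42 in spermatocytes, and the 117-nt exon of Fam98c at 76.6% ± 1.95 in round spermatids and 75.6% ± 1.32 in spermatocytes. In each of the 3 the stages overlapped.

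Members in lists of related genes are given next by their counts, beside a background of 0.542% called in spermatocytes, 0.131% in round spermatids and 12.8% without overlap of stages. Of 26 members of splicing regulators measured in both stages, 4 were higher and 3 lower in round spermatids without overlap, none by 20 points, and in round spermatids 0 were called by either test, with an unadjusted limma p under 0.05 in 2. Srsf9, an SR protein, stood at 30.3% to 39.8% in round spermatids and 11.3% to 22.4% in spermatocytes (90 nt). Srsf11, another, stood at 27.3% to 38.6% in round spermatids against 47.2% to 54.9% in spermatocytes (117 nt). The list of 7SK, P-TEFb and U6 genes had 4 members, none called in either stage by limma or the quasi-binomial test (unadjusted limma p under 0.05 in 0 in round spermatids and 1 in spermatocytes), and 2 were higher in round spermatids without overlap. Hexim2, an inhibitor of P-TEFb, stood at 95% to 100% in round spermatids against 58.7% to 82.1% in spermatocytes, on 21.2 reads per library in spermatocytes. Mettl16, which methylates U6 RNA, stood at 35.5% to 48% in round spermatids against 12.8% to 32.5% in spermatocytes (66 nt).

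None of the 21 members of meiosis genes was called in either stage by limma or the quasi-binomial test, and 2 in round spermatids and 4 in spermatocytes had an unadjusted limma p under 0.05. In the 18 measured in both stages, 2 were higher and 4 lower in round spermatids without overlap. The 87-nt exon of Trip13, an ATPase that remodels meiotic chromosome axes, stood at 29.2% to 34.5% in round spermatids and 44.5% to 72.9% in spermatocytes. The 99-nt exon of Sun1, which tethers telomeres to the nuclear envelope, stood at 33.5% to 38.8% in round spermatids against 50.6% to 54.6% in spermatocytes. Among 17 members of acrosome and spermatid genes, the Catsperd exon was the 1 called, and of 12 measured in both stages 5 were higher and 2 lower in round spermatids.

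Flagellum and cilium genes had 25 members, of which those of Odf2l and Ift122 were called in spermatocytes, both lower in the first sample group. The 177-nt exon of Ift122, a subunit of the intraflagellar transport complex A, stood at 73.1% and 77.4% in group 1 against 85.3% and 83.6% in group 2, and limma alone called it (limma adjusted p = 0.0494). In round spermatids, where it was not called, the order was the other way, at 86.9% and 90.04% in group 1 against 84.3% and 84.7% in group 2. Between stages 5 of 20 were higher and 2 lower in round spermatids without overlap. The 144-nt exon of Cfap74, of the axonemal central apparatus, stood at 91.6% to 100% in round spermatids and 56.6% to 69.8% in spermatocytes. The 165-nt exon of Cep152, a centriole duplication protein, stood at 20.1% to 39% in round spermatids against 52.2% to 54.9% in spermatocytes.

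Members of membrane traffic and adhesion genes (50 in 33 genes), chromatin and transcription genes (39 in 32) and nonsense-mediated decay factors (3 in 2) had no call in either stage by limma or the quasi-binomial test. An unadjusted limma p under 0.05 was seen in 4 of 45, 1 of 36 and 0 of 2 in round spermatids and in 7 of 46, 6 of 37 and 1 of 3 in spermatocytes. Between stages, without overlap, 5 of 41 members of membrane genes were higher and 2 lower in round spermatids, and 6 of 34 members of chromatin genes were higher and 1 lower. The 63-nt exon of Epb41, protein 4.1 of the membrane skeleton, stood at 0% to 0.587% in round spermatids and 8.08% to 41.3% in spermatocytes, where it had 16.2 reads per library. The 39-nt exon of Brd3, a bromodomain protein that reads acetylated histones, stood at 79.4% to 100% in round spermatids against 30.7% to 76.9% in spermatocytes. In spermatocytes it stood at 30.7% and 45% in the first sample group, against 75.1% and 76.9% in the second, without a call (limma adjusted p = 0.183). Of the nonsense-mediated decay factors, the 213-nt exon of Smg6 stood at 92.7% to 96% in round spermatids against 87.2% to 91.5% in spermatocytes. Lists of markers of other cells held 5 members, of Stra8 (2), Wt1, Myh11 and Odf2, and none was called in either stage by limma or the quasi-binomial test, or had an unadjusted limma p under 0.05.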

How the data were processed

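Reads of sorted cells were aligned with STAR to mm10, per the submitters' processing notes; they name no version. The authors deposited 10 tables, 1 per stage and event type. Rows give, per the file headers, reads of the inclusion and the skipping form in 2 sample groups, both form lengths, inclusion levels as a fraction, and a p-value with FDR from the authors' test. In a deposited count cell the values of 2 libraries are joined by a comma. The members and gene lists were chosen with earlier results of these data known.

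Member rows were filtered first and the row with most reads was then kept for each exon. Events with at least 10 reads per library on average and 1 read of each form were tested with limma 3.58.1 (R 4.3.3) on log2 odds of inclusion. Both forms received 0.5 added reads on average, in proportion to the event's depth; weights were the inverse counting variance, and the eBayes trend followed reads of the rarer form. This trend and scaling had been settled on after counts of calls in these tables were seen. Benjamini-Hochberg adjustment covered every tested event of a stage. Both tests were run on simulated data that all held the same added spread between libraries, and limma made more false calls there than the quasi-binomial test. Tables and plots were made with Python 3.11.15, pandas 2.3.3 and matplotlib 3.10.9.

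Exons named between sample groups are those called, at least 10 points apart without overlap, 1 per gene, up to 14 per stage. Those named between stages had 50 reads per library and no overlap, 10 per direction. Per list, called members and the 2 with the largest stage difference are named, and the 3 best covered within 2 points are given as constant. Others are said to be chosen after their values were seen. A few exons that these rules name are not reported here. Library totals are unknown, and the reads behind a level limit its precision. Genome sequence beyond the RefSeq windows was not used here.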

Additional observations from a re-analysis of the deposited data

How the results depend on the processing

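No paired analysis was possible because the columns carry no replicate number. The 40 calls among members of spermatocytes and the 7 of round spermatids rest on the trend of the spread. With the trend on total reads both counts were 0 (447 and 354 members with an unadjusted limma p under 0.05), as they were without a read minimum (273 and 176), and the cause was not tested. Without count weights limma called 3 in spermatocytes, 1 of them among the 40, and 2 in round spermatids, 0 among the 7. The quasi-binomial test called 33 and 14, of which 30 and 7 were limma calls; counting only exons called by both tests was chosen after seeing the data. By the authors' deposited table, with their FDR below 0.05, 303 members were called in spermatocytes, with 39 of the 40 among them. That is 14.7%, beside 4.8% of all events and 15.1% of frame-shifting exons. In round spermatids 140 were called, with 6 of the 7 among them (7.08%, beside 2.4% of all events and 8.19% of frame-shifting exons). Leaving out 1 library gave 0 to 94 calls in spermatocytes and 0 to 43 in round spermatids. Both counts were 0 when library 1 or 2 of the second sample group was left out, where 100 and 87 members in spermatocytes and 82 and 88 in round spermatids had an unadjusted limma p under 0.05. Unscaled added reads, a minimum of 20 reads and bounds of 20% to 80% left both counts within 1.5 times, at 27 to 40 and 5 to 8. For the 47 exon differences called, 470 refits were made, of which 155 still gave a call and 315 did not. None changed direction, but the exons were chosen as called on the same reads, so this gives no support to the directions.

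Between stages, 118 members were at least 20 points apart without overlap. There were 256 at 10 points, 62 at 30 points, 92 with a minimum of 20 reads, 122 with bounds of 20% to 80% and 118 to 148 when 1 library was left out. Library pairs limit every test here: 2 libraries a group leave few degrees of freedom, and exons with few reads have the least precise levels.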
